A study of Homo sapiens with 22 samples.

Results

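Convergent poly(A) sites are here a plus-strand site and a minus-strand site that lie close together, so that RNAs ending there can run toward each other. Members were found in the 3'READS table of Kasumi-1 cells, among 34780 sites off the mitochondrial chromosome that averaged at least 5 reads over 10 libraries. Each plus-strand site was joined to its nearest minus-strand site on the same chromosome, and the pair was kept where the positions (hg19) differed by at most 500 nt. This gave 977 pairs of 17738 nearest pairs at any distance. They held 977 plus sites and 733 minus sites, which together were 4.92% of the 34780 sites. The remaining 33 plus sites lay on a chromosome or scaffold with no minus site. Mean reads and position chose the members, and the change between groups did not.

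A poly(A) site is where a nascent RNA is cut and given its poly(A) tail, a step that also prepares RNA polymerase II to stop transcribing a little further downstream. Where a pair of genes lies tail to tail, each polymerase that runs past its own site moves into the other gene, and mature RNAs that overlap there are complementary to each other. FIP1L1 belongs to the complex named cleavage and polyadenylation specificity factor (CPSF), binds RNA near the poly(A) signal and contacts poly(A) polymerase. The question put to the pairs was whether both strands changed together or against each other when FIP1L1 was knocked down.

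Kasumi-1, an established cell line, came from a human acute myeloid leukaemia with the RUNX1-RUNX1T1 fusion. A lentivirus carried one of a pair of shRNAs against FIP1L1 (shFIP1L1-1 and shFIP1L1-2, called shRNA 1 and shRNA 2) or a control shRNA (shControl), and all groups were selected with puromycin. 3'READS, a method that reads where polyadenylated RNAs end, covered 4 shRNA 1, 3 shRNA 2 and 3 control libraries. Replicates are called biological in the labels, with no word on separate transductions, so each p-value here is measured against the spread of the libraries at hand. In RNA-seq of 12 libraries, FIP1L1 averaged 15.4 ± 1.55 CPM with shRNA 1, 19.6 ± 0.788 CPM with shRNA 2 and 41.3 ± 2.27 CPM in control libraries (SD, n = 4 each). Both knockdowns passed the edgeR test over 15834 genes, at a log2 change of -1.43 (SE 0.10, adjusted p = 1.92e-11) for shRNA 1 and -1.08 (SE 0.10, adjusted p = 3.01e-09) for shRNA 2.

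3'READS totals ran from 5666102 to 10846661 reads. Control replicate 3 and shRNA 1 replicates 1 and 2 stood apart: across sites, log2 CPM of library pairs within a group that included one of these 3 correlated at 0.836 to 0.911, and the other pairs within a group at 0.954 to 0.967. Between groups the correlations reached 0.904. No label gives a batch, so these 3 libraries are kept in the main results, and results that rest on them are also given without them, an alternative chosen after seeing the data. The tests without them use 2 shRNA 1, 3 shRNA 2 and 2 control libraries. Leaving out the libraries that differ most within their groups lowers the spread those tests use. Their p-values and counts of calls are therefore a description. CPM (counts scaled to a common library size) below use a TMM-adjusted library total over the 34780 sites. In such bulk shares, fewer cells of a type and less RNA per cell cannot be told apart.

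Pairs crowded around a distance of 0. In 399 pairs the minus site lay below the plus site, in 9 pairs both sites had the same position, and in 569 pairs a gap separated them. The 399 are called overlapping by position alone. RNA starts were not measured, so whether the RNAs of such a pair share bases was not tested. The median distance was 130 nt. Overlaps of 1 to 100 nt made up 222 pairs, against 103 gaps of 1 to 24 nt and 94 gaps of 25 to 100 nt. Further out, gaps became the more common form: 259 pairs had a gap over 200 nt and 103 an overlap over 200 nt, and among nearest pairs more than 500 and up to 1000 nt apart 305 were gapped and 126 overlapped.

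**Figure D1:**
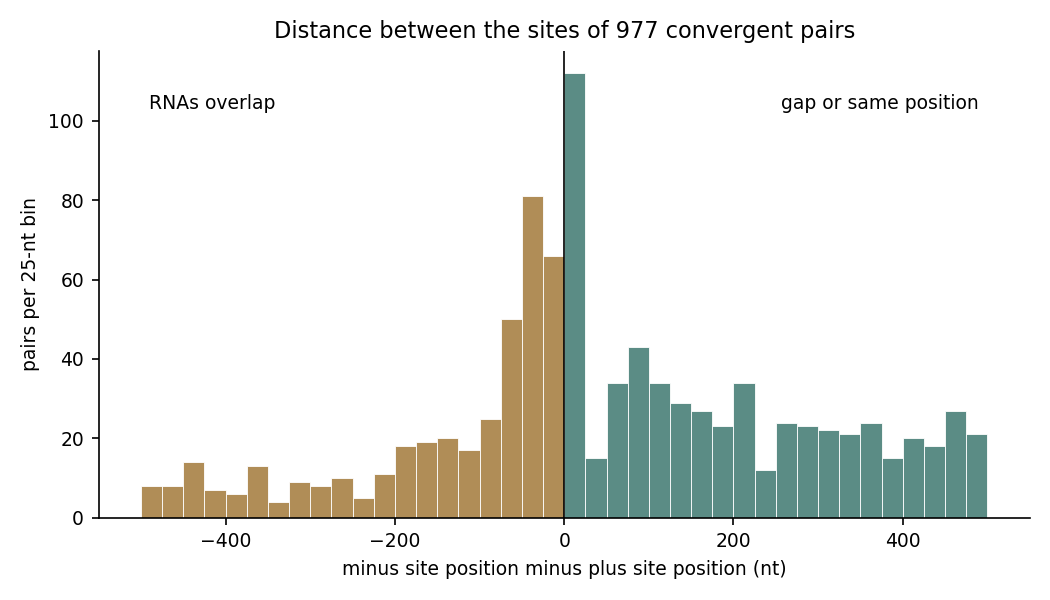
Number of convergent pairs (y axis, per 25-nt bin) by the position of the minus site minus that of the plus site (x axis, nt), with 399 overlapping pairs left of 0 and 578 gapped or same-position pairs at 0 and right of it. The 4 fullest bins, with 50, 81, 66 and 112 pairs, run from an overlap of 75 nt to a gap under 25 nt, the next bin holds 15, and right of 100 nt gapped pairs outnumber overlapping pairs at the same distance.

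In 722 pairs each site was also the nearest opposite-strand site of the other. Of the 733 minus sites, 566 were nearest to 1 plus site and 167 to more than 1, so the pairs are not independent of each other. Chromosome 17 had the largest share of plus sites in a pair (103 of 1070, 9.63%), then chromosomes 22 (33 of 398, 8.29%), 19 (89 of 1113, 7.996%) and 11 (83 of 1056, 7.86%). The X chromosome had the lowest share of the chromosomes with a pair (10 of 517, 1.93%).

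At the edge of the rule, the pair on chromosome 18 at 673328 and 672828 lay 500 nt apart and was kept, and the pairs on chromosome 17 at 37884910 and 37885411 and on chromosome 7 at 99017238 and 99016737 lay 1 nt further apart and were left out. There were 14 member sites with a mean of exactly 5.0 reads, and 20 sites with a mean of 4.9 reads had an opposite-strand site within reach but fell short. Of the 1710 member sites, 1397 averaged 5 reads in every group, 224 in 2 groups and 89 in 1 group only. Of those 89, shRNA 1 held 40, shRNA 2 held 42 and control 7.

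The strands of a pair were mostly unequal. The stronger site was the plus site in 496 pairs and the minus site in 481. The weaker site held less than 5% of the pair's mean reads in 184 pairs, 5% to 20% in 301 and more than 20% in 492. The weaker site averaged 12.5 reads at the median and the stronger site 89.6, so that most tests of both strands rest on few reads on one of them. Over all nearest pairs these medians were lower, at 9.3 and 46.5 reads. In 187 pairs both sites averaged at least 50 reads.

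Pairs named in this paragraph were chosen after their values were seen, as the most unequal, the most even at 1 position and the most crowded. At chr19:8387278 the plus site had 10296, 10433, 27123 and 23083 CPM in shRNA 1, 14864, 14756 and 15084 CPM in shRNA 2 and 22833, 23014 and 12283 CPM in control libraries. This was the member site with the most reads, and its minus site 191 nt away, at chr19:8387469, had 3, 0, 2 and 4 reads in shRNA 1, 9, 10 and 6 reads in shRNA 2 and 12, 5 and 0 reads in control libraries. A pair only 1 nt apart, the plus site at chr2:55462741 and the minus site at chr2:55462742, was nearly as unequal, with a plus mean of 4140.5 ± 1892 CPM in shRNA 1 (SD, n = 4), 4213 ± 352 CPM in shRNA 2 and 6460.2 ± 2343 CPM in control libraries (SD, n = 3 each). Its minus site averaged 0.821 ± 0.461 CPM in shRNA 1 (SD, n = 4), 0.673 ± 0.572 CPM in shRNA 2 and 0.767 ± 0.247 CPM in control libraries (SD, n = 3 each). Among same-position pairs, chr17:80400520 had the most reads at its weaker site. At chr17:80400520 the plus site had 176, 118, 100.3 and 91.2 CPM in shRNA 1, 77, 79.1 and 62.7 CPM in shRNA 2 and 85.9, 94.6 and 131 CPM in control libraries. At chr17:80400520 the minus site had 190.5, 199, 297 and 237 CPM in shRNA 1, 183, 152 and 159 CPM in shRNA 2 and 134, 129 and 121 CPM in control libraries. Minus reads at chr17:80400520 were higher in every shRNA library than in every control library, and plus reads overlapped between shRNA 1 and control libraries but were lower in every shRNA 2 library than in any other. The minus site passed the test with shRNA 1 (log2 change 0.85, SE 0.22, edgeR adjusted p = 0.0167) and the plus site did not (log2 change 0.23, SE 0.26, edgeR adjusted p = 0.618). That minus call was lost without control replicate 1 (adjusted p = 0.057), control replicate 2 (0.068) or shRNA 1 replicate 3 (0.0559). The most crowded place was the minus site at chr19:5691846, which was nearest to 7 plus sites. At chr19:5691846 the minus site had 80.7, 61, 69.9 and 74.7 CPM in shRNA 1, 92.8, 91.8 and 103 CPM in shRNA 2 and 118, 112 and 134 CPM in control libraries. Its closest plus site, 37 nt into the overlap at chr19:5691883, averaged 53.3 ± 13.7 CPM in shRNA 1 (SD, n = 4), 52.9 ± 6.21 CPM in shRNA 2 and 50.3 ± 5.36 CPM in control libraries (SD, n = 3 each), and the strongest of the 7, at chr19:5691676, averaged 2769 ± 1197 CPM in shRNA 1 (SD, n = 4), 2536 ± 254 CPM in shRNA 2 and 2525 ± 978 CPM in control libraries (SD, n = 3 each). The minus site was lower in every shRNA 1 library than in every control library (log2 change -0.76, SE 0.20, edgeR adjusted p = 0.0204), a call lost without control replicate 1 (adjusted p = 0.0615) or 2 (0.0516).

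With shRNA 1 against control, 33 pairs had both sites past the edgeR site test at an adjusted p below 0.05. In 14 pairs (1.43% of 977) both sites changed the same way, 4 higher and 10 lower, and 1.11% of all nearest pairs did so. In 19 pairs (1.94%) the sites changed in opposite ways, in 10 of them with the plus site higher, and 0.936% of all nearest pairs did so. Of the 187 pairs with at least 50 reads per site, 6 (3.21%) were called the same way and 6 (3.21%) opposite ways. All 1680 nearest pairs of that depth gave 3.21% and 2.32%. Whether these shares differ was not tested. A called site averaged under 5 reads in its lower group, and so met the read minimum only through other groups, in 5 of the 14 pairs and in 6 of the 19. Such a site had to differ, and its test is a description. One site alone was called in 222 pairs and neither in 722. Of the 1710 member sites 14.4% were called, against 13.7% of all 34780 sites, with 5.73% higher and 8.71% lower among members and 6.69% higher and 6.99% lower among all sites. The median log2 change was -0.07 over member sites and 0.01 over all sites. Across the 977 pairs the log2 changes of the plus and the minus site had a Pearson correlation of 0.02, given as a description, since the pairs share libraries and some share a minus site. Over all nearest pairs the correlation was 0.03. Changes had the same sign in 52.5% of the 977 pairs and in 51.1% of all nearest pairs.

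**Figure D2:**
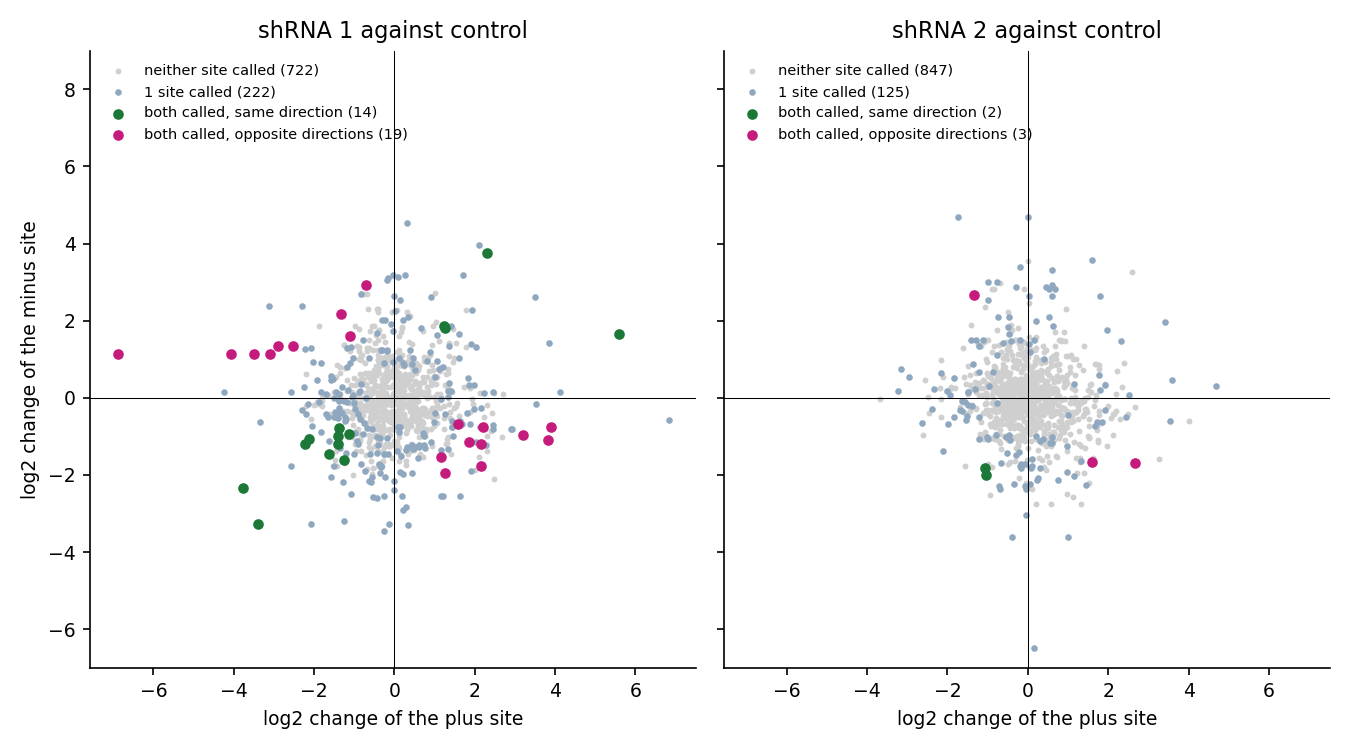
Log2 change of the plus site (x axis) against that of the minus site (y axis) for the 977 pairs, shRNA 1 against control on the left and shRNA 2 against control on the right, coloured by which sites passed the edgeR test. Points fill all 4 quadrants about evenly in both panels, with 14 pairs called the same way and 19 called opposite ways on the left, and 2 and 3 on the right.

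The pairs described next were called with shRNA 1 on both strands and were chosen after their values were seen, starting in each class with the pair that had the highest mean CPM at its weaker site. Among the 10 pairs lower together, the plus site changed by -3.77 to -1.12 on the log2 scale, and 3 of the 10 overlap. The first is on chromosome 9, the plus site at chr9:35661183 and the minus site at chr9:35661434. At chr9:35661183 the plus site had 14.9, 22.4, 37.6 and 33.3 CPM in shRNA 1, 63, 56.9 and 69.6 CPM in shRNA 2 and 79.5, 70.0 and 27.6 CPM in control libraries. At chr9:35661434 the minus site had 85.5, 34.8, 45.1 and 49.5 CPM in shRNA 1, 28.3, 36.7 and 37 CPM in shRNA 2 and 82.6, 104 and 119.8 CPM in control libraries. On the plus strand 2 shRNA 1 libraries lay below all control libraries, and control replicate 3 lay among the shRNA 1 libraries. On the minus strand 3 shRNA 1 libraries lay below all control libraries, and shRNA 1 replicate 1 lay just above control replicate 1. Both sites passed the test (log2 change -1.12, SE 0.35, edgeR adjusted p = 0.0412 for the plus site and log2 change -0.93, SE 0.28, edgeR adjusted p = 0.038 for the minus site). The plus call was lost without control replicate 1 or 2, shRNA 1 replicate 1 or 2 or any 1 shRNA 2 replicate (adjusted p up to 0.209), and the minus call without any 1 library but shRNA 1 replicate 1 (up to 0.110).

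On chromosome 17, the plus site at chr17:4848515 and the minus site at chr17:4848952, with a gap of 437 nt, were lower together by more. At chr17:4848515 the plus site had 13.5, 13, 10.7 and 9.59 CPM in shRNA 1, 46.7, 47.2 and 47.1 CPM in shRNA 2 and 49.7, 51.3 and 51.9 CPM in control libraries. At chr17:4848952 the minus site had 14.7, 15.7, 12.4 and 16.4 CPM in shRNA 1, 28.3, 26.1 and 27.5 CPM in shRNA 2 and 28.4, 37.3 and 26.3 CPM in control libraries. Every shRNA 1 library lay below every other library on both strands, and shRNA 2 and control libraries were close to each other. The plus site fell with shRNA 1 (log2 change -2.13, SE 0.22, edgeR adjusted p = 1.6e-05), and so did the minus site (log2 change -1.06, SE 0.24, edgeR adjusted p = 0.00709), whose call was lost without control replicate 2 (adjusted p = 0.0596). With shRNA 2 neither was called (log2 change -0.12, SE 0.23, edgeR adjusted p = 0.826 for the plus site). Another pair that was lower together had its sites 1 nt apart, at chr11:111955872 and chr11:111955873. At chr11:111955872 the plus site had 2.48, 7.46, 13.8 and 13.1 CPM in shRNA 1, 16.3, 18.6 and 20.6 CPM in shRNA 2 and 34.1, 41.4 and 11.5 CPM in control libraries. At chr11:111955873 the minus site had 29.2, 23.3, 23.4 and 29.3 CPM in shRNA 1, 63.2, 65.1 and 56.8 CPM in shRNA 2 and 73, 82 and 62.3 CPM in control libraries. On the minus strand the shRNA 1 and control libraries did not overlap, and on the plus strand control replicate 3 lay among the shRNA 1 libraries. Both sites were called (log2 change -1.64, SE 0.46, edgeR adjusted p = 0.0255 for the plus site; log2 change -1.46, SE 0.22, edgeR adjusted p = 0.000377 for the minus site). The plus call was lost without control replicate 1 (adjusted p = 0.0978), control replicate 2 (0.144) or shRNA 1 replicate 2 (0.0581). Without the 3 libraries that stand apart, control replicate 3 among them, the log2 change of the plus site was -1.49 (edgeR adjusted p = 1.72e-07, a description).

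On chromosome 3, the plus site at chr3:49453908 and the minus site at chr3:49454212, with a gap of 304 nt, were higher together with shRNA 1, the first of 4 such pairs. At chr3:49453908 the plus site had 85.3, 62.9, 76.9 and 81.9 CPM in shRNA 1, 21.1, 18.7 and 15.6 CPM in shRNA 2 and 25.7, 30.1 and 41.4 CPM in control libraries. At chr3:49454212 the minus site had 64.6, 92.4, 109 and 122 CPM in shRNA 1, 51.6, 50.3 and 37.6 CPM in shRNA 2 and 34.3, 34 and 12.2 CPM in control libraries. Both sites were higher in every shRNA 1 library than in any library of the other groups. The plus site rose with shRNA 1 (log2 change 1.25, SE 0.25, edgeR adjusted p = 0.00316) and the minus site too (log2 change 1.85, SE 0.34, edgeR adjusted p = 0.00202). An overlapping pair with few control reads, chr17:41447394 (plus) and chr17:41447207 (minus), was higher on both strands with shRNA 1. At chr17:41447394 the plus site had 7.04, 14.5, 7.98 and 9.44 CPM in shRNA 1, 1.18, 1.52 and 1.92 CPM in shRNA 2 and 1.71, 2.46 and 1.61 CPM in control libraries. At chr17:41447207 the minus site had 7.25, 7.27, 7.47 and 6.10 CPM in shRNA 1, 0.674, 0.607 and 0.226 CPM in shRNA 2 and 0.171, 0.737 and 0.537 CPM in control libraries. Both strands were again highest in all 4 shRNA 1 libraries, while shRNA 2 and control libraries overlapped. Both sites passed the test (log2 change 2.31, SE 0.40, edgeR adjusted p = 0.0013 for the plus site and log2 change 3.76, SE 0.53, edgeR adjusted p = 0.000232 for the minus site). The minus site at chr17:41447207 averaged under 5 reads in shRNA 2 and control libraries and met the read minimum only through shRNA 1, so its test is a description. For both pairs the calls against control held with each library left out in turn. Without the 3 libraries that stand apart, the plus site at chr3:49453908 gave 1.502 (edgeR adjusted p = 8.43e-09) and its minus site 1.76 (edgeR adjusted p = 1.04e-10), and the plus site at chr17:41447394 gave 2.03 (edgeR adjusted p = 9e-05) and its minus site 3.74 (edgeR adjusted p = 3.69e-06).

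Other pairs changed in opposite ways with shRNA 1. The 10 with the plus site higher rest on 9 minus sites, and the 9 with the minus site higher on 5. On chromosome 11, the plus site at chr11:75133343 and the minus site at chr11:75133440, with a gap of 97 nt, had the plus site higher and the minus site lower. At chr11:75133343 the plus site had 152, 154, 136 and 134 CPM in shRNA 1, 10.6, 9.60 and 10.5 CPM in shRNA 2 and 15.1, 17.9 and 14 CPM in control libraries. At chr11:75133440 the minus site had 7.25, 5.16, 3.99 and 5.08 CPM in shRNA 1, 12.3, 10.5 and 12.5 CPM in shRNA 2 and 9.94, 9.58 and 11.8 CPM in control libraries. The plus site in shRNA 1 libraries was several times its level in any other library, and the minus site in shRNA 1 libraries lay below all others. The plus site rose (log2 change 3.20, SE 0.24, edgeR adjusted p = 3.7e-07) and the minus site fell (log2 change -0.97, SE 0.30, edgeR adjusted p = 0.0385). The minus call was lost without any 1 of 8 libraries, all 3 control and all 3 shRNA 2 replicates and shRNA 1 replicates 3 and 4, at an adjusted p of up to 0.101, and without the 3 that stand apart it was -1.11 (edgeR adjusted p = 0.00247). The plus call held in each of these fits.

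On chromosome 12, 4 plus sites between 6979795 and 6980088 shared the minus site at chr12:6980102. At chr12:6979992 the plus site had 76.4, 43.2, 62.4 and 69.2 CPM in shRNA 1, 689, 565 and 581 CPM in shRNA 2 and 530.3, 638 and 956 CPM in control libraries. At chr12:6980102 the minus site had 51.6, 41.1, 51.4 and 47.2 CPM in shRNA 1, 15, 18.1 and 12.9 CPM in shRNA 2 and 29, 25.9 and 10.0 CPM in control libraries. The plus site at chr12:6979992 was far lower in all shRNA 1 libraries than in the others, and the shared minus site was higher in them than in any control library. The plus site fell (log2 change -3.49, SE 0.26, edgeR adjusted p = 4.78e-07) and the minus site rose (log2 change 1.14, SE 0.31, edgeR adjusted p = 0.0235), and the minus call was lost without control replicate 2 (adjusted p = 0.0508). At chr12:6980088 the plus site had 2.48, 2.29, 2.06 and 2.32 CPM in shRNA 1, 17.7, 17.3 and 12.1 CPM in shRNA 2 and 15.6, 15.2 and 28.1 CPM in control libraries. That plus site, 14 nt from the minus site, fell as well (log2 change -3.09, SE 0.32, edgeR adjusted p = 1.53e-05). The 4 pairs here count as 4 of the 19 opposite pairs while resting on 1 minus site. Another opposite pair had the minus site as its stronger one, the plus site at chr14:53241703 and the minus site at chr14:53241912. At chr14:53241703 the plus site had 12.8, 10.9, 9.79 and 9.01 CPM in shRNA 1, 9.27, 5.36 and 5.43 CPM in shRNA 2 and 4.28, 3.56 and 5.37 CPM in control libraries. At chr14:53241912 the minus site had 13.5, 14.1, 11.7 and 13.7 CPM in shRNA 1, 28.1, 24.5 and 23.9 CPM in shRNA 2 and 51.9, 49.5 and 52.3 CPM in control libraries. Groups did not overlap on the minus strand, where shRNA 1 was lowest and control highest. The minus site fell with shRNA 1 (log2 change -1.95, SE 0.22, edgeR adjusted p = 3.13e-05) and with shRNA 2 (log2 change -1.01, SE 0.23, edgeR adjusted p = 0.017), and the plus site rose with shRNA 1 (log2 change 1.27, SE 0.33, edgeR adjusted p = 0.0181). The plus call was lost without control replicate 1 (adjusted p = 0.0722) or 2 (0.0991), and the minus call with shRNA 2 was lost without control replicate 1 or 2 or any 1 shRNA 2 replicate (up to 0.103).

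Another opposite pair overlapped by 157 nt, at chr16:2259411 and chr16:2259254, and both of its calls with shRNA 1 held with each library left out in turn. At chr16:2259411 the plus site had 28, 13.8, 17.9 and 14.7 CPM in shRNA 1, 25.9, 22.1 and 21.4 CPM in shRNA 2 and 47, 35.5 and 56.8 CPM in control libraries. At chr16:2259254 the minus site had 4.97, 4.97, 3.48 and 4.21 CPM in shRNA 1, 7.08, 4.55 and 5.43 CPM in shRNA 2 and 1.54, 1.11 and 0.179 CPM in control libraries. Plus levels were lower and minus levels higher in every shRNA 1 library than in every control library. The plus site fell (log2 change -1.32, SE 0.28, edgeR adjusted p = 0.00495) and the minus site rose (log2 change 2.17, SE 0.51, edgeR adjusted p = 0.00957). At chr19:36604612 the sites share a position, and the minus site was strong and the plus site weak. At chr19:36604612 the plus site had 1.66, 3.25, 0.901 and 1.16 CPM in shRNA 1, 1.68, 1.31 and 1.25 CPM in shRNA 2 and 0.343, 0 and 0 CPM in control libraries. At chr19:36604612 the minus site had 35.2, 28.7, 50.1 and 66.8 CPM in shRNA 1, 69.1, 57.1 and 65.9 CPM in shRNA 2 and 104, 98.1 and 86.7 CPM in control libraries. Plus levels were higher and minus levels lower in every shRNA library than in every control library, with 2 control libraries at 0 on the plus strand. The plus site met the read minimum only through the shRNA libraries, so its tests and those of its balance are a description. It was called with shRNA 1 (log2 change 3.82, SE 0.97, edgeR adjusted p = 0.0153), a call lost without control replicate 2 (0.0831), and with shRNA 2 (log2 change 3.53, SE 1.00, edgeR adjusted p = 0.0455), a call lost without control replicate 2 or 3, shRNA 1 replicate 3 or 4 or any 1 shRNA 2 replicate (0.0514 to 0.170). Balance was called with shRNA 2 as well (log2 change 4.17, SE 1.03, edgeR adjusted p = 0.0378), and that call was lost without any 1 control or shRNA 2 replicate (0.0570 to 0.160). The minus site fell with shRNA 1 (log2 change -1.09, SE 0.27, edgeR adjusted p = 0.0127), a call lost without control replicate 1 (0.0577), and with shRNA 2 the test gave log2 change -0.59, SE 0.29, edgeR adjusted p = 0.249.

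**Figure D3:**
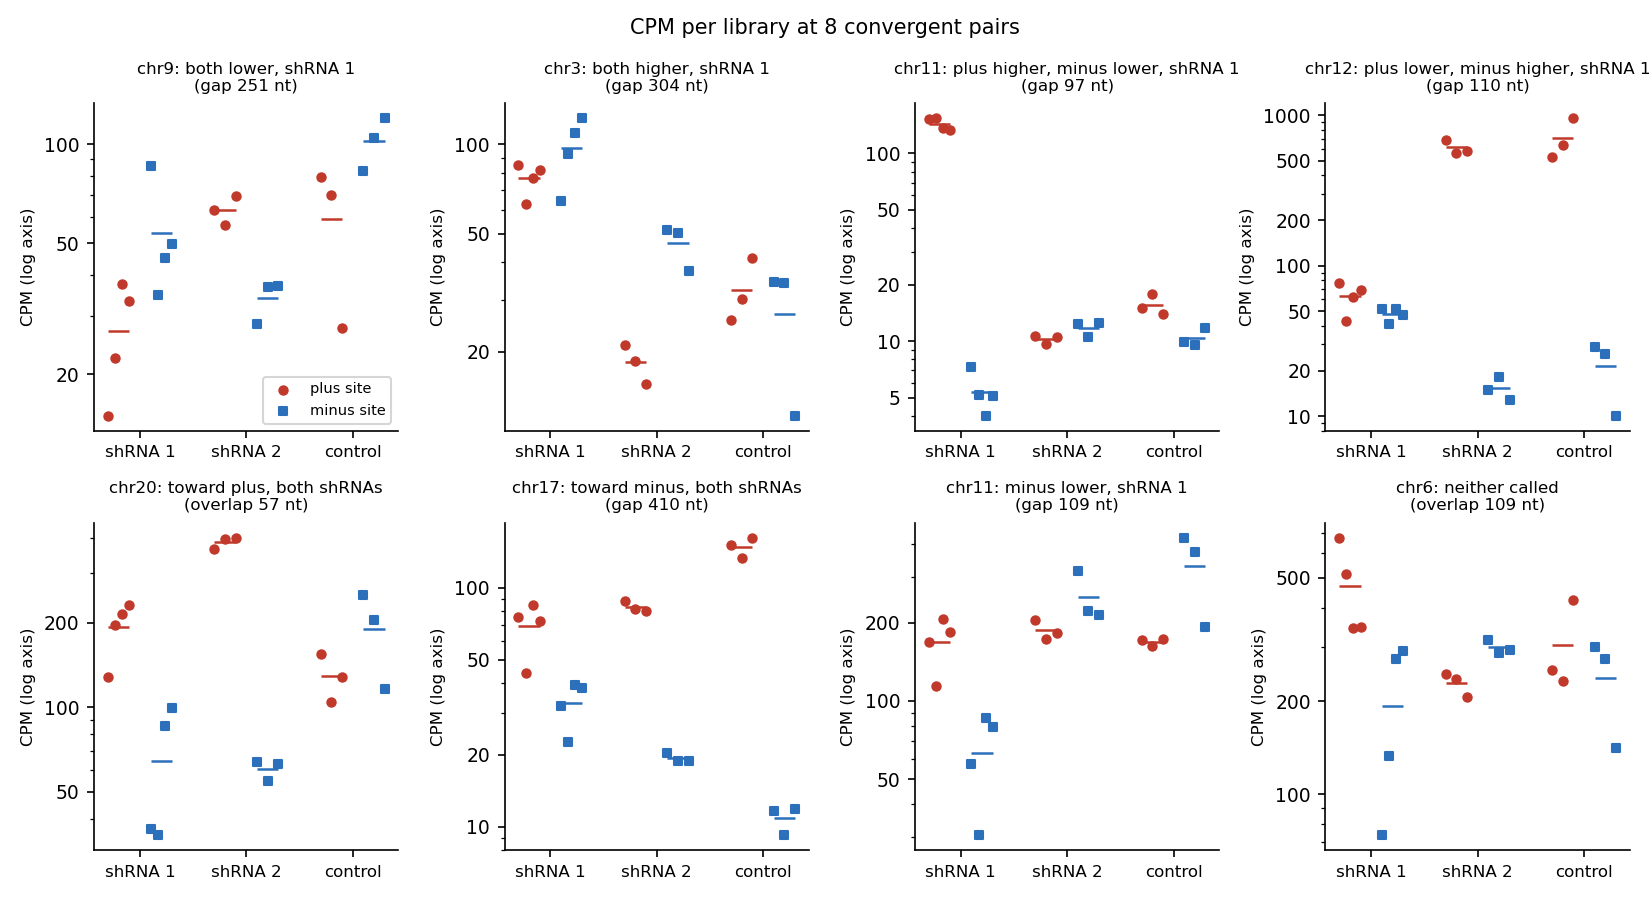
CPM (log axis) at 8 convergent pairs, with 1 panel per pair, red circles for the plus site, blue squares for the minus site, 1 point per library and a bar at the group mean, for shRNA 1, shRNA 2 and control from left to right. The top row shows, for each way of being called on both strands with shRNA 1, the pair with the highest mean CPM at its weaker site, and the bottom row 2 pairs called for strand balance with both shRNAs, 1 pair with its minus site lower with shRNA 1, and 1 pair on chromosome 6 in which neither site was called against control.

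With shRNA 2 against control, 5 pairs had both sites called. In 2 pairs (0.205% of 977) both sites were lower and in none were both higher, and 0.265% of all nearest pairs had both sites called the same way. In 3 pairs (0.307%) the sites were called in opposite ways, and 0.209% of all nearest pairs were. In 2 of these 3 a called site averaged under 5 reads in its lower group. Of the 187 pairs with at least 50 reads per site, 2 (1.07%) were called the same way and 1 (0.535%) opposite ways. All 1680 nearest pairs of that depth gave 0.893% and 0.655%. One site was called in 125 pairs, and 6.61% of member sites were called (2.69% higher and 3.92% lower), against 6.29% of all sites (2.90% higher and 3.39% lower). The Pearson correlation of the log2 changes of both strands was -0.09 over the 977 pairs and 0.01 over all nearest pairs. Changes had the same sign in 45.2% of the 977 pairs, a figure that was 50.7% over all nearest pairs. Both comparisons use the same 3 control libraries.

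All 5 pairs are named, after their values were seen. At chr2:74760125 the plus site had 72.1, 49.7, 53.8 and 48.4 CPM in shRNA 1, 23.6, 19.3 and 16.3 CPM in shRNA 2 and 41.5, 30.3 and 52.8 CPM in control libraries. At chr2:74760261 the minus site had 28, 17.2, 17.8 and 20.2 CPM in shRNA 1, 10.8, 15.8 and 14.5 CPM in shRNA 2 and 36, 40.8 and 67.9 CPM in control libraries. With shRNA 2 both strands of this pair, which has a gap of 136 nt, were below every control library. The plus site fell (log2 change -1.07, SE 0.28, edgeR adjusted p = 0.0296), and the minus site fell as well (log2 change -1.81, SE 0.31, edgeR adjusted p = 0.00316). With shRNA 1 the plus site was not called (log2 change 0.43, SE 0.26, edgeR adjusted p = 0.295) and the minus site was lower (log2 change -1.22, SE 0.28, edgeR adjusted p = 0.0087). The plus call with shRNA 2 was lost without control replicate 1 or 3 or any 1 shRNA 2 replicate (adjusted p up to 0.156).

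Another pair on chromosome 2, at 74784676 and 74785019, was also lower on both strands. At chr2:74784676 the plus site had 79.3, 83.9, 70.4 and 65.7 CPM in shRNA 1, 61, 62.4 and 62.3 CPM in shRNA 2 and 106, 123 and 153 CPM in control libraries. At chr2:74785019 the minus site had 13.5, 27.5, 26.5 and 22.7 CPM in shRNA 1, 8.59, 9.50 and 8.83 CPM in shRNA 2 and 44, 42.5 and 20.4 CPM in control libraries. The shRNA 2 libraries were the lowest of all on both strands. Both calls passed with shRNA 2 (log2 change -1.04, SE 0.23, edgeR adjusted p = 0.0137 for the plus site; log2 change -1.99, SE 0.34, edgeR adjusted p = 0.00318 for the minus site). The plus call was lost without any 1 shRNA 2 replicate (adjusted p of 0.0691 to 0.0758).

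In 3 pairs the strands were called in opposite ways with shRNA 2. At chr11:118964258 the plus site had 65.2, 28.7, 82 and 91.7 CPM in shRNA 1, 50.7, 47.6 and 50.03 CPM in shRNA 2 and 139, 122 and 116 CPM in control libraries. At chr11:118964453 the minus site had 0.207, 0, 0.515 and 0.726 CPM in shRNA 1, 5.22, 5.05 and 3.40 CPM in shRNA 2 and 0.514, 0.982 and 0.537 CPM in control libraries. The shRNA 2 libraries lay below control on the plus strand and above all others on the minus strand. The plus site fell (log2 change -1.35, SE 0.33, edgeR adjusted p = 0.0217), and the minus site, 195 nt away, had few reads and met the read minimum only through shRNA 2 libraries, so its test is a description (log2 change 2.68, SE 0.65, edgeR adjusted p = 0.0206). Both calls were lost without control replicate 1 or 2 or any 1 shRNA 2 replicate, and the minus call also without control replicate 3 (adjusted p of 0.0557 to 0.110). On chromosome 16, 314 nt apart, the strands moved the other way. At chr16:684116 the plus site had 1.24, 2.29, 1.93 and 7.26 CPM in shRNA 1, 6.40, 3.23 and 4.30 CPM in shRNA 2 and 0.686, 0.737 and 0.716 CPM in control libraries. At chr16:684430 the minus site had 149, 69.2, 82.1 and 89.9 CPM in shRNA 1, 71.8, 66.3 and 68.4 CPM in shRNA 2 and 174, 171 and 321 CPM in control libraries. Control libraries were the lowest on the plus strand and the highest on the minus strand. This pair was called in opposite ways in both comparisons, for shRNA 2 with log2 change 2.66, SE 0.66, edgeR adjusted p = 0.0231 on the plus strand and log2 change -1.69, SE 0.32, edgeR adjusted p = 0.00526 on the minus strand. For shRNA 1 the values were log2 change 2.15, SE 0.64, edgeR adjusted p = 0.0344 on the plus strand and log2 change -1.19, SE 0.29, edgeR adjusted p = 0.0113 on the minus strand. The plus call with shRNA 1 was lost without any 1 of the 3 control replicates, shRNA 1 replicate 4 or shRNA 2 replicates 1 or 3 (adjusted p of 0.0503 to 0.131), and that with shRNA 2 without any 1 control or shRNA 2 replicate (0.0531 to 0.109). The minus call with shRNA 1 was lost without control replicate 3 (0.0588). The plus site averaged under 5 reads in control libraries and met the read minimum only through the shRNA libraries, so its tests are a description. The last of the 5, on chromosome 20, is described with the pairs chosen by rule below.

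Strand balance was tested in its own right, as the difference between the log2 change of the plus site and that of the minus site within the same libraries. With shRNA 1 it was called in 96 pairs (9.83% of 977), and in 9.69% of all nearest pairs. Of the members 55 moved toward the plus strand and 41 toward the minus strand, against 4.80% and 4.89% of all nearest pairs. With shRNA 2 it was called in 43 pairs (4.40%), and in 3.10% of all nearest pairs, with 18 members toward plus and 25 toward minus, against 1.66% and 1.44% of all nearest pairs. With at least 50 reads at both sites, balance was called in 13.4% of members and 14.6% of all nearest pairs with shRNA 1. With shRNA 2 these shares were 5.88% and 4.29%. Whether the shares differ between members and all nearest pairs was not tested. The median standard error of a balance was 0.77 for shRNA 1 and 0.79 for shRNA 2 on the log2 scale. The smallest change called was 1.35 for shRNA 1 and 1.67 for shRNA 2, and the median size of a called change was 2.86 and 3.11. Shifts of the smallest called size, and larger ones, could therefore go uncalled in a typical pair.

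The naming rule took, from reciprocal pairs with a mean of at least 5 CPM at both sites, up to 4 in each direction whose balance was called the same way with both shRNAs. It gave 1 toward the plus strand and 4 toward the minus strand, and since these calls chose the pairs, their tests are a description. The rule also sought pairs called the same way or opposite ways with both shRNAs and found 0. Over all 977 pairs, 0 were called the same way with both shRNAs and 1 opposite ways with both. Balance was called with both toward plus in 4 of the 977 and toward minus in 8. These counts were not made over all nearest pairs. The first pair given by the rule for balance overlaps by 57 nt on chromosome 20. At chr20:44527456 the plus site had 129, 197, 216 and 231 CPM in shRNA 1, 365, 397 and 402 CPM in shRNA 2 and 155, 104 and 128 CPM in control libraries. At chr20:44527399 the minus site had 36.9, 35, 85.7 and 99.2 CPM in shRNA 1, 64, 54.6 and 62.8 CPM in shRNA 2 and 250.2, 205 and 116 CPM in control libraries. On the plus strand all shRNA 2 libraries were above all others, and on the minus strand every shRNA library was below every control library. The balance moved toward plus with shRNA 1 (log2 change 2.22, SE 0.46, edgeR adjusted p = 0.00651) and with shRNA 2 (log2 change 3.20, SE 0.50, edgeR adjusted p = 0.00337). The shRNA 1 call was just lost without control replicate 2 (adjusted p = 0.0506). With shRNA 2 both sites were called, the plus site higher (log2 change 1.59, SE 0.26, edgeR adjusted p = 0.00214) and the minus site lower (log2 change -1.66, SE 0.39, edgeR adjusted p = 0.0179). The minus call was lost without control replicate 1 or 2 or any 1 shRNA 2 replicate (up to 0.1).

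Among the 4 pairs that moved toward the minus strand, the gap was 410 nt for the one on chromosome 17. At chr17:42153711 the plus site had 75.8, 44, 85.1 and 72.5 CPM in shRNA 1, 88.1, 81.7 and 80.3 CPM in shRNA 2 and 151, 133 and 162 CPM in control libraries. At chr17:42154121 the minus site had 31.9, 22.6, 39.3 and 38.1 CPM in shRNA 1, 20.4, 18.8 and 18.9 CPM in shRNA 2 and 11.7, 9.21 and 11.8 CPM in control libraries. Groups did not overlap between control and either shRNA on either strand, the plus site being lower and the minus site higher in all shRNA libraries. Its balance changed with shRNA 1 (log2 change -2.71, SE 0.40, edgeR adjusted p = 0.000707) and with shRNA 2 (log2 change -1.67, SE 0.42, edgeR adjusted p = 0.0415). The shRNA 2 call was lost without any 1 of 8 libraries, all but shRNA 1 replicates 1 and 2 (adjusted p up to 0.174), and was -1.67 (edgeR adjusted p = 3.84e-05) without the 3 that stand apart.

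On chromosome 1 the pair at 1470064 and 1470159 had a strong plus site and a weak minus site. At chr1:1470064 the plus site had 104, 74.2, 74.5 and 86.7 CPM in shRNA 1, 113, 93.9 and 97.3 CPM in shRNA 2 and 126, 124 and 167 CPM in control libraries. At chr1:1470159 the minus site had 20.9, 13, 13.8 and 10.8 CPM in shRNA 1, 10.1, 9.50 and 4.98 CPM in shRNA 2 and 2.40, 1.72 and 1.61 CPM in control libraries. The minus site was higher in every shRNA library than in every control library. It rose with shRNA 1 (log2 change 2.92, SE 0.39, edgeR adjusted p = 0.000168) and with shRNA 2 (log2 change 2.09, SE 0.40, edgeR adjusted p = 0.00614), and the balance moved with shRNA 1 (log2 change -3.60, SE 0.48, edgeR adjusted p = 0.00033) and with shRNA 2 (log2 change -2.49, SE 0.51, edgeR adjusted p = 0.0151). The shRNA 2 balance call was lost without control replicate 2 (adjusted p = 0.0725), shRNA 2 replicate 1 (0.0918) or shRNA 2 replicate 2 (0.111).

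On chromosome 11, the plus site at chr11:47610746 and the minus site at chr11:47611217, with a gap of 471 nt, moved toward minus through the plus site. At chr11:47610746 the plus site had 21.3, 6.50, 8.11 and 6.10 CPM in shRNA 1, 5.90, 5.76 and 8.15 CPM in shRNA 2 and 47.6, 44.7 and 62 CPM in control libraries. At chr11:47611217 the minus site had 79.7, 45.7, 46.1 and 61.9 CPM in shRNA 1, 122, 100.1 and 92.9 CPM in shRNA 2 and 51.1, 58.8 and 107 CPM in control libraries. All shRNA libraries were below all control libraries on the plus strand, while on the minus strand each shRNA overlapped control. The plus site fell with shRNA 1 (log2 change -2.31, SE 0.37, edgeR adjusted p = 0.000777) and with shRNA 2 (log2 change -2.95, SE 0.42, edgeR adjusted p = 0.000885), and the balance changed with shRNA 1 (log2 change -2.20, SE 0.47, edgeR adjusted p = 0.00725) and with shRNA 2 (log2 change -3.56, SE 0.51, edgeR adjusted p = 0.00209). These 4 calls held with each library left out in turn.

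The fourth pair overlaps by 40 nt, at chr11:61731933 and chr11:61731893, and moved toward minus through the minus site. At chr11:61731933 the plus site had 4.14, 11.3, 9.01 and 14.2 CPM in shRNA 1, 8.09, 7.99 and 4.64 CPM in shRNA 2 and 13.2, 10.2 and 5.73 CPM in control libraries. At chr11:61731893 the minus site had 5.38, 14.9, 15.8 and 14.4 CPM in shRNA 1, 7.08, 6.17 and 8.49 CPM in shRNA 2 and 2.91, 2.33 and 0.716 CPM in control libraries. Plus levels overlapped in all groups and minus levels were above control in every shRNA library. The balance changed with shRNA 1 (log2 change -2.75, SE 0.56, edgeR adjusted p = 0.00562) and with shRNA 2 (log2 change -2.44, SE 0.60, edgeR adjusted p = 0.0361), the shRNA 2 call being lost without any 1 control or shRNA 2 replicate (adjusted p of 0.084 to 0.180).

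The shRNAs were also set against each other. With shRNA 2 against shRNA 1, 40 pairs had both sites called, 18 the same way (8 higher and 10 lower with shRNA 2) and 22 in opposite ways. A called site averaged under 5 reads in its lower group in 6 of the 18 and in 5 of the 22. All nearest pairs gave 1.74% called the same way and 1.57% called in opposite ways, and the members 1.84% and 2.25%. With at least 50 reads at both sites, all nearest pairs gave 2.62% and 3.81%, and the members 1.60% and 4.28%. Strand balance was called in 133 pairs (13.6%), 62 toward plus and 71 toward minus, against 14.4% of all nearest pairs (7.69% toward plus and 6.72% toward minus). Of member sites 17.7% were called (8.89% higher and 8.83% lower with shRNA 2), and of all sites 17.9% (8.43% higher and 9.46% lower). The pairs on chromosomes 3 and 11 that moved with shRNA 1 were called here as well: the plus site at chr3:49453908 was lower with shRNA 2 than with shRNA 1 (log2 change -2.06, SE 0.25, edgeR adjusted p = 7.32e-05), and so was the plus site at chr11:75133343 (log2 change -3.81, SE 0.24, edgeR adjusted p = 2.6e-07).

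The deepest pairs by rule, 6 in number, were those with the most CPM at the weaker site. The pair at chr11:67202872 and chr11:67202981 had a minus site that fell with shRNA 1 beside a plus site that was not called. At chr11:67202872 the plus site had 168, 114, 206 and 185 CPM in shRNA 1, 204, 173 and 183 CPM in shRNA 2 and 171, 163 and 172 CPM in control libraries. At chr11:67202981 the minus site had 56.9, 30.4, 85.9 and 79.3 CPM in shRNA 1, 316, 222 and 215 CPM in shRNA 2 and 425, 376 and 192 CPM in control libraries. The minus site was lower in all shRNA 1 libraries than in all others. Plus levels overlapped between shRNA 1 and control libraries, and those of shRNA 2 lay just above the highest control library. The minus site fell with shRNA 1 (log2 change -2.39, SE 0.34, edgeR adjusted p = 0.000255), and the balance moved toward plus (log2 change 2.38, SE 0.44, edgeR adjusted p = 0.00325). Between shRNA 2 and shRNA 1 the balance differed (log2 change -1.89, SE 0.44, edgeR adjusted p = 0.0092), a call lost without shRNA 2 replicate 1 (adjusted p = 0.0563).

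At chr14:78183939 and chr14:78183946, 7 nt apart, the plus site was the one that fell with shRNA 1. At chr14:78183939 the plus site had 39.1, 67.1, 95.5 and 103 CPM in shRNA 1, 140.2, 144 and 151 CPM in shRNA 2 and 229, 250.4 and 115 CPM in control libraries. At chr14:78183946 the minus site had 95, 151, 152 and 162 CPM in shRNA 1, 135, 165 and 161 CPM in shRNA 2 and 168, 151 and 123 CPM in control libraries. The plus site was lower in all shRNA 1 libraries than in any other library, and shRNA 2 lay between shRNA 1 and control replicates 1 and 2, while control replicate 3 lay between shRNA 1 and shRNA 2. Its test gave log2 change -1.38, SE 0.32, edgeR adjusted p = 0.00834, lost without control replicate 2 (adjusted p = 0.0556), and the minus site gave log2 change -0.07, SE 0.23, edgeR adjusted p = 0.874.

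The pair overlapping by 274 nt on chromosome 16 showed a fall of the minus site with shRNA 2. At chr16:30017111 the plus site had 551, 326, 259 and 229.5 CPM in shRNA 1, 168, 185 and 142 CPM in shRNA 2 and 207, 212 and 443 CPM in control libraries. At chr16:30016837 the minus site had 389, 332, 498 and 422 CPM in shRNA 1, 171, 175 and 133 CPM in shRNA 2 and 286, 305 and 337 CPM in control libraries. Minus levels in shRNA 2 libraries were below those of all other libraries. The minus site fell with shRNA 2 (log2 change -0.95, SE 0.23, edgeR adjusted p = 0.0207), a call lost without control replicate 1 or 2 or any 1 shRNA 2 replicate (adjusted p up to 0.131), and the plus site was not called (log2 change -0.80, SE 0.35, edgeR adjusted p = 0.19). In the pair at chr16:67263181 and chr16:67263299 the minus site was lower in every shRNA 1 library than in every other one, at 90.0 ± 16.4 CPM in shRNA 1 (SD, n = 4), 149 ± 11.7 CPM in shRNA 2 and 156 ± 18.6 CPM in control libraries (SD, n = 3 each). Its test gave log2 change -0.80, SE 0.22, edgeR adjusted p = 0.0213, lost without any 1 control replicate or shRNA 1 replicate 3 or 4 (adjusted p of 0.0508 to 0.0563). Its plus site averaged 127 ± 35 CPM in shRNA 1 (SD, n = 4), 163 ± 13 CPM in shRNA 2 and 186 ± 22.1 CPM in control libraries (SD, n = 3 each) and was not called.

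The remaining 2 of the deepest pairs had no site called against control, and their libraries split within groups. At chr6:42980078 the plus site had 675, 515, 343 and 346 CPM in shRNA 1, 244, 236 and 207 CPM in shRNA 2 and 252, 232 and 424 CPM in control libraries. At chr6:42979969 the minus site had 73.7, 133, 273 and 290.1 CPM in shRNA 1, 316, 287 and 292 CPM in shRNA 2 and 298, 273 and 141 CPM in control libraries. At this pair, which overlaps by 109 nt, control replicate 3 and shRNA 1 replicates 1 and 2 were the highest of their groups on the plus strand and the lowest on the minus strand. These are the libraries that stand apart, and without them the plus site rose with shRNA 1 by a log2 change of 0.51 (edgeR adjusted p = 0.00173), and the minus site was not called, at -0.02 (edgeR adjusted p = 0.923). At chr17:27900174 the plus site had 125, 146, 198 and 165 CPM in shRNA 1, 142, 146 and 138 CPM in shRNA 2 and 105, 134 and 114 CPM in control libraries. At chr17:27900494 the minus site had 73.7, 263, 397 and 384 CPM in shRNA 1, 381, 303 and 287 CPM in shRNA 2 and 399, 328 and 139 CPM in control libraries. The minus site of this chromosome 17 pair was likewise lowest in control replicate 3 and shRNA 1 replicate 1, and its test gave log2 change -0.05, SE 0.43, edgeR adjusted p = 0.962.

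Without the 3 libraries that stand apart, 26.8% of all sites and 30.3% of member sites passed the test with shRNA 1, and 27.6% and 30.9% with shRNA 2, and the counts on members rose with those on all pairs. With shRNA 1, 52 pairs were then called the same way and 51 in opposite ways, which is 5.32% and 5.22% of 977, against 4.11% and 3.62% of all nearest pairs. With shRNA 2 the counts were 40 and 54, which is 4.09% and 5.53%, against 3.82% and 3.58%. Strand balance was called in 230 pairs with shRNA 1 (23.5%, against 21.1% of all nearest pairs) and in 282 pairs with shRNA 2 (28.9%, against 20.9%). The changes on both strands had a Pearson correlation of 0.00 (shRNA 1) and -0.08 (shRNA 2) over the 977 pairs. The 187 pairs with at least 50 reads at both sites had a correlation of -0.02 (shRNA 1) and -0.20 (shRNA 2). In these 187, shRNA 1 had 29 pairs called the same way (15.5%), 18 opposite ways (9.63%) and 74 for balance (39.6%), where all 1680 nearest pairs of that depth gave 12.4%, 10.0% and 37.9%. For shRNA 2 the members gave 17 (9.09%), 20 (10.7%) and 83 (44.4%), and all nearest pairs of that depth 10.0%, 10.5% and 35.8%. Of the 399 overlapping pairs, 16 (4.01%) were called the same way and 17 (4.26%) opposite ways with shRNA 1, against the 4.11% and 3.62% of all nearest pairs. With shRNA 2 these were 16 (4.01%) and 21 (5.26%), against 3.82% and 3.58%. In all 10 libraries the 399 gave 4 (1.00%) and 3 (0.752%) with shRNA 1, where all nearest pairs gave 1.11% and 0.936%. For shRNA 2 they gave 0 and 1 (0.251%), where all nearest pairs gave 0.265% and 0.209%. Whether these shares differ was not tested.

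**Figure D4:**
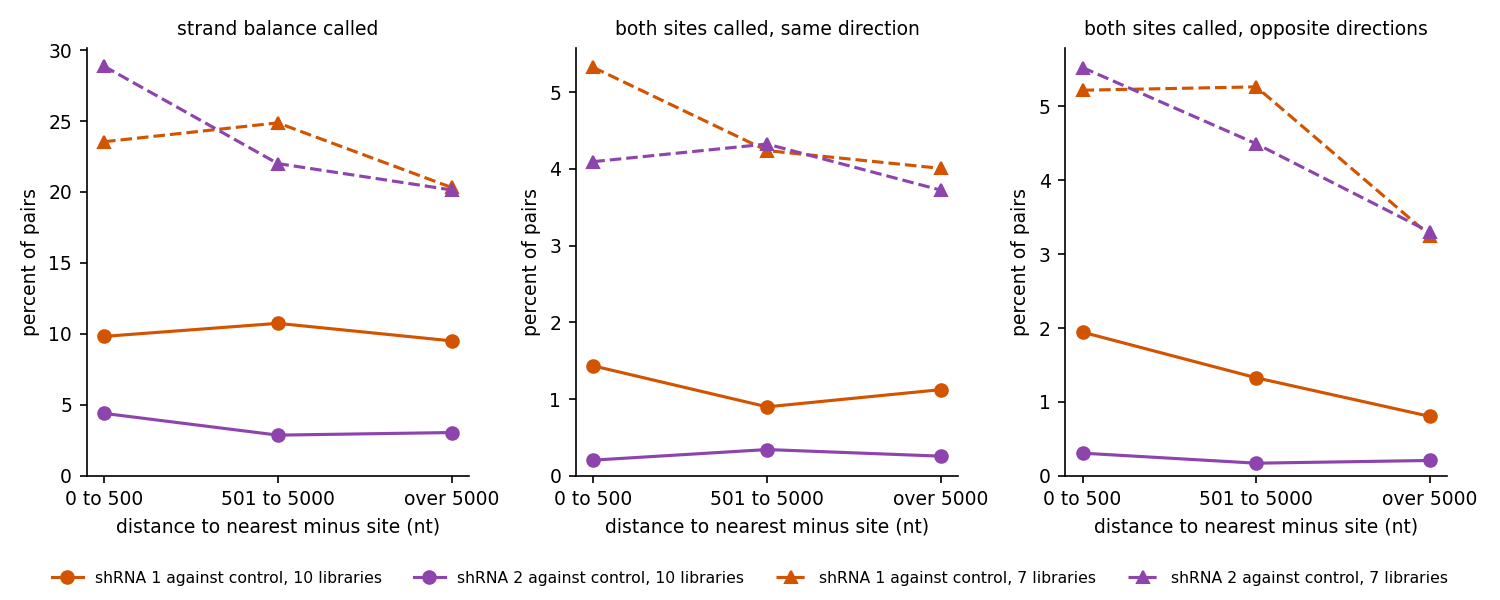
Percent of nearest pairs (y axis) with strand balance called (left), both sites called the same way (middle) and both sites called opposite ways (right), by distance between the sites (x axis), for shRNA 1 (orange) and shRNA 2 (purple) against control, with all 10 libraries (solid) and without the 3 that stand apart (dashed). Strand balance was called in 9.83% and 4.40% of pairs within 500 nt with all libraries, and in 23.5% and 28.9% without the 3.

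Summed over all member sites, reads made up 80242, 78261, 101854 and 98177 CPM in shRNA 1 libraries, 81566, 80298 and 80871 CPM in shRNA 2 libraries and 105928, 105059 and 93857 CPM in control libraries. All shRNA 2 libraries were below all control libraries, and 2 of the 4 shRNA 1 libraries were. The difference of means was -11981 CPM for shRNA 1 (exact permutation p = 0.286) and -20703 CPM for shRNA 2 (exact permutation p = 0.1, the smallest that 3 against 3 allows). Without the 3 libraries that stand apart the differences were -5557 CPM and -24937 CPM. Without the site at chr19:8387278 alone the differences were -10339 CPM (exact permutation p = 0.0571, the smallest that 4 against 3 allows) and -16227 CPM (exact permutation p = 0.1).

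The plus strand held 71.6%, 73.3%, 76.4% and 75.3% of member reads in shRNA 1 libraries, 70.9%, 71.3% and 71.4% in shRNA 2 libraries and 73.2%, 73.9% and 68.9% in control libraries. Overlapping pairs held 31.0%, 30.4%, 23.9% and 24.6% of member reads in shRNA 1 libraries, 24.5%, 24.6% and 24.3% in shRNA 2 libraries and 22.0%, 22.0% and 27.3% in control libraries. Over all member sites, both shares overlapped between each shRNA and control. In overlapping pairs, the 3 libraries that stand apart were the 3 highest, and without them the share was 24.2% ± 0.545 with shRNA 1 (SD, n = 2), 24.5% ± 0.143 with shRNA 2 (SD, n = 3) and 22.0% ± 0.0154 in control libraries (SD, n = 2). With the difference between shRNA 2 and shRNA 1 included, 9 such differences were tested two-sided by exact permutation, and the smallest adjusted p over the 9 was 0.45. These 9 used all member sites. Without the member site with the most reads, the plus-strand share was 67.4% to 69.2% with shRNA 1 and 64.2% to 66.5% in control. The share in overlapping pairs was 32.2% to 35.5% and 28.0% to 31.4%. In both, shRNA 1 no longer overlapped control (exact permutation p = 0.0571 each, unadjusted, the smallest these group sizes allow). Shares with shRNA 2 still overlapped control (exact permutation p = 0.4 each).

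**Figure D5:**
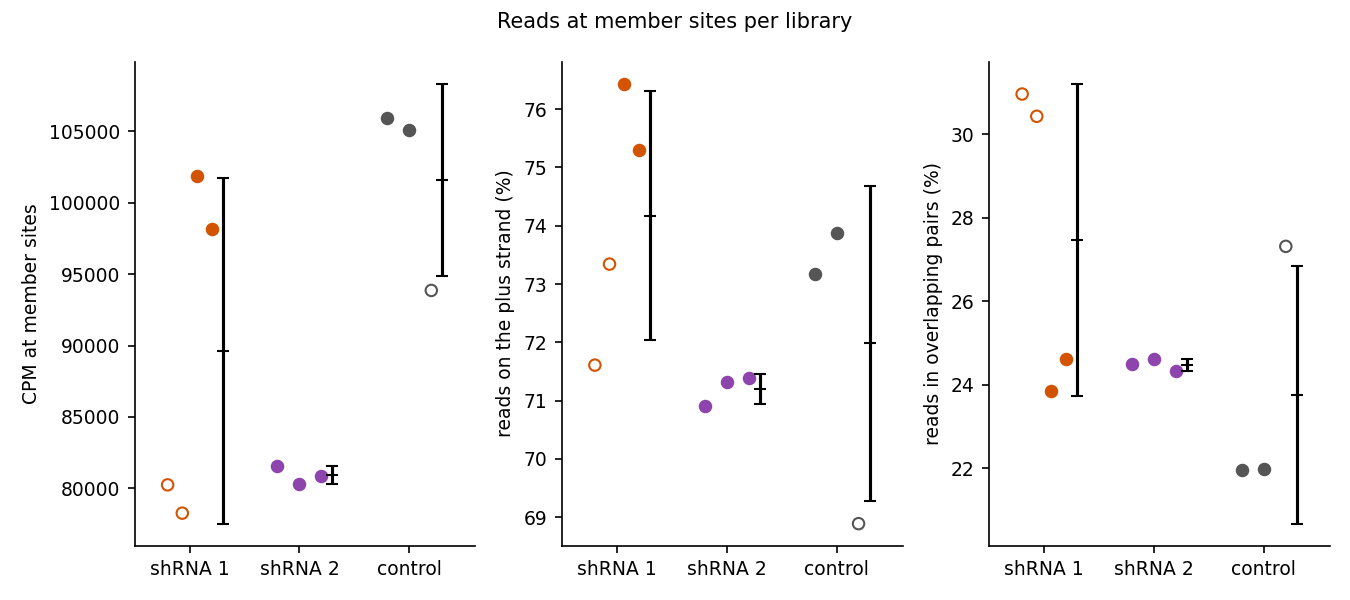
CPM at member sites (left), percent of member reads on the plus strand (middle) and percent in overlapping pairs (right), 1 point per library for shRNA 1, shRNA 2 and control, with the mean and SD beside each group and axes that do not start at 0. Open circles are control replicate 3 and shRNA 1 replicates 1 and 2, which are the highest 3 in the right panel at 27.3%, 31.0% and 30.4%.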

How the data were processed

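Kasumi-1 cells were profiled by 3'READS in 10 libraries and by RNA-seq in 12. The authors' deposited tables hold raw counts, of reads per poly(A) site and strand (1618880 sites) and of reads per gene. The build hg19 and the tools STAR 2.7.3a, cutadapt 2.6 and DESeq2 are those named in the submitters' processing notes. The site counts were not assigned to genes here, and no sequence is given, since no hg19 genome or annotation was used. Depth and the 3 libraries that stand apart are given with the results.

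Sites were kept off the mitochondrial chromosome at a mean of at least 5 reads. Site changes were tested in one edgeR 4.0.16 quasi-likelihood fit of all 10 libraries over 34780 sites (TMM scaling, R 4.3.3, 7 residual degrees of freedom). Strand balance was tested in a second edgeR fit over 17738 nearest pairs, with a term for each library, one for strand and one for strand by group. Calls used a Benjamini-Hochberg adjusted p below 0.05 over each whole table. Read totals were compared by two-sided exact permutation in scipy 1.17.1. Both scripts were tested on simulated data. Groups came from the sample titles. The members, lists and alternatives were chosen with earlier results of these data known.

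Pairs named by rule were reciprocal, averaged at least 5 CPM at both sites and lay off chromosome 8. They were the 6 with the highest mean CPM at the weaker site, and up to 4 each with both sites called the same way, opposite ways, or strand balance called one way, with both shRNAs. All other named pairs were chosen after their values were seen. Same-numbered replicates did not deviate together (r of -0.669 to 0.228, above 0.1 in 2 of 9), so no block was used. Some differently numbered libraries did, as control replicate 3 with shRNA 1 replicate 1 (r = 0.709). Control replicates 1 and 2 did so with shRNA 1 replicates 3 and 4 (0.552 to 0.646). Others deviated against each other, as control replicate 3 with shRNA 1 replicate 4 (-0.707). Alternatives were other scaling (RLE), DESeq2 1.42.0 with limma 3.58.1, other read minimums, 250 nt, reciprocal pairs, a replicate block and leaving out libraries.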

Additional observations from a re-analysis of the deposited data

Results flagged for a closer look

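The 4 shRNA 1 libraries were examined in 25 sets of values, at the sites of the pairs named by rule and in the totals over member sites. In 3 of the 25, 1 library lay far from the others. In all 3 it was shRNA 1 replicate 1, one of the libraries that stand apart. The sets share the same 4 libraries and are not independent, so their number cannot be set against a rate by chance. At the plus site chr11:47610746 it had 21.3 CPM and the others 6.10 to 8.11 CPM, so that the gap was 0.868 of the group's range. At the minus site chr11:61731893 it had 5.38 CPM and the others 14.4 to 15.8 CPM (gap 0.861 of the range). At the minus site chr14:78183946 it had 95.03 CPM and the others 151 to 162 CPM (gap 0.839 of the range).

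Strand balance was compared between the shRNAs at the 11 pairs named by rule. These include 1 pair toward plus and 4 toward minus that were chosen for a balance called the same way with both shRNAs. The number that differed is therefore no rate. Balance between the shRNAs was called in 13.6% of the 977 pairs and in 14.4% of all nearest pairs. Among the 11 balances 1 differed, at chr11:67202872 and chr11:67202981. Its balance with shRNA 2 minus that with shRNA 1 was a log2 difference of -1.894 (adjusted p = 0.0092 in edgeR). It was -1.65 without the 3 libraries that stand apart.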

How the results depend on the processing

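Counts are given in the order called the same way, called opposite ways and strand balance called. Without the 3 libraries that stand apart they were 52, 51 and 230 for shRNA 1 against control, 40, 54 and 282 for shRNA 2 against control, and 55, 61 and 293 for shRNA 2 against shRNA 1. With DESeq2 for sites and limma for balance, shRNA 2 against control gave 5, 10 and 24, while 10.4% of all sites and 2.15% of all nearest pairs were called (6.29% and 3.10% with edgeR for both). A mean of at least 10 reads gave 4 pairs of 628 called the same way with shRNA 2, with 9.52% of all sites called. With sites down to a mean of 1 read in the fit, 4.63%, 1.85% and 6.46% of all sites were called in the 3 comparisons. Balance was then called in 23 of the 977 pairs with shRNA 1, in 6 with shRNA 2 and in 45 between the shRNAs. Of all pairs in that fit, 0.940%, 0.144% and 2.02% were called for balance. There 1 pair was called the same way with shRNA 2, and between the shRNAs 11 were called the same way and 14 opposite ways. The 677 pairs at most 250 nt apart and the 722 reciprocal pairs are parts of the 977, counted from the main fit. Of the 677, 11 were called opposite ways and 57 for balance with shRNA 1, and 1 the same way with shRNA 2. Between the shRNAs 10 of the 677 were called the same way and 88 for balance. Of the 722 reciprocal pairs, 1 was called the same way with shRNA 2. Fewer pairs by themselves give fewer calls. The share of member reads in overlapping pairs, shRNA 2 minus shRNA 1, changed sign, at 0.886 percentage points in reciprocal pairs and 0.229 without the 3 libraries. The cause was not tested.

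Replicate numbers were shared across groups but did not pair the libraries. A replicate block called 7.86%, 2.76% and 11.6% of all sites in the 3 comparisons. With it shRNA 1 gave 6, 6 and 50 pairs, and shRNA 2 gave 0 called the same way (a share of 0% of those with both sites called) and 12 for balance. Balance was called in 5.56% of all nearest pairs with shRNA 1 and in 0.930% with shRNA 2. The shRNAs against each other gave 8 called the same way and 12 opposite ways.

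With each library left out in turn, pairs called the same way numbered 6 to 17 with shRNA 1, 0 to 5 with shRNA 2 and 5 to 21 between the shRNAs. Pairs called opposite ways numbered 6 to 24, 0 to 10 and 7 to 24, and balance calls 41 to 111, 6 to 80 and 50 to 148. Calls over all features moved as well: 7.37% to 15.4%, 2.08% to 10.3% and 8.53% to 20.2% of all sites, and 4.12% to 11.3%, 0.474% to 6.21% and 5.19% to 15.8% of all nearest pairs for balance. The lowest balance counts against control came without control replicate 2 (41, shRNA 1) and shRNA 2 replicate 2 (6, shRNA 2). Of pairs with both sites called, 40.0% to 53.8%, 23.1% to 100% and 37.5% to 48.5% moved the same way. The 100% with shRNA 2 rested on 1 pair without control replicate 1 and on 2 pairs without control replicate 2. Without any 1 shRNA 2 replicate, 0 pairs had both sites called with shRNA 2, which gave no share. With all 10 libraries the shares were 42.4%, 40.0% and 45.0% of such members, and 54.3%, 56.0% and 52.6% of such pairs among all nearest pairs. The difference in member CPM was -16103 to -8136 for shRNA 1, -24946 to -18724 for shRNA 2 and -12429 to -4662 between the shRNAs. The difference in plus-strand percent was 0.647 to 3.14, -2.33 to 0.166 and -3.83 to -2.22, and in overlapping percent 2.55 to 5.49, -0.179 to 2.49 and -4.20 to -1.83. Of 208 called values at 55 pairs (those named by rule, those with both sites called with either shRNA and those with strand balance called with both shRNAs, all off chromosome 8, among others), 105 kept their call in every such fit, 103 lost it in at least 1 and 0 turned direction. Few reads at the weaker site limit most pairs.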
